A study of Mus musculus with 42 samples.

Results

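The distal receptor cluster of chromosome 10 is a run of odorant receptor genes near the end of that mouse chromosome. Its members were chosen by name and position alone: genes of the count table with a GENCODE M21 symbol of Olfr plus a number in the distal stretch of chromosome 10 of GRCm38. That stretch begins less than 1 Mb before base 128989431, where the first member starts, and runs to the end of the chromosome. This gave 55 genes, out of 1026 receptors with such a symbol, 1170 receptor symbols once pseudogene symbols are counted, and 44674 genes in the whole table.

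The tissue was the main olfactory epithelium of male C57BL/6NCrl mice aged 8 to 12 weeks, with the same genotype in every group. Before dissection the mice spent 1 h with No Odor, or with the odour of NCD (normal chow), of BFD (a bacon-flavoured diet of matched nutrient content) or of HFD (a high-fat diet made with lard, HFD_lard_ in the labels). Epithelia of 4 mice were combined into each pool, so a value describes a pool and not an animal, and there were 5 pools without odour, 6 with NCD, 5 with BFD and 5 with HFD odour. From each pool came a library of RNA pulled down with an antibody against phosphorylated ribosomal protein S6 and a library of the input RNA, 42 libraries in all. Pulldown libraries held 25392812 to 36738330 counts and inputs 24839555 to 36781553.

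A mature olfactory sensory neuron expresses a single odorant receptor gene, so the RNA of a receptor stands for the neurons that chose it. Activity in these neurons leads to phosphorylation of S6, and the antibody therefore enriches ribosomes of recently active neurons together with the messenger RNA they carry. Odorant receptor genes lie in clusters that grew by duplication, and near copies are common among neighbours.

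The tissue label was checked against marker genes. All 12 markers of mature olfactory sensory neurons had counts, with none at 0, and summed to 17910 ± 1682 CPM (counts scaled to a common library size with TMM; SD, n = 5) in the inputs without odour. Omp, a cytoplasmic protein of mature olfactory neurons, was the most abundant of them at 7067 CPM.

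The 55 genes span 1224973 bases, from 128989431 to 130214403 on chromosome 10, with 25 on the plus strand and 30 on the minus strand. The annotation lists 54 as protein coding, and Olfr779 as a polymorphic pseudogene. Across the 1485 pairs of members, coding sequences were identical at a median of 65.4% of aligned bases, from 46.8% to 99.3%. Next-door members had a median identity of 68.6%, and for 21 members the closest relative in the cluster was the gene next door. Clustering on these identities was cut into 2 branches, a number set in advance. The large branch holds 45 members with a median identity of 66.8% among themselves. The small branch holds the other 10, which are Olfr9 and Olfr763 at the start of the cluster, Olfr796 in its middle, and Olfr819, Olfr247 and Olfr823 to Olfr827 toward its end, with a median identity of 54.3%. Between the branches the median was 51.0% and no pair passed 54.7%.

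Near copies matter for counting, since a read that matches several genes is divided among them by estimation. Of the values of members, 61.5% were not whole numbers, against 30.9% over all genes. A gene without a count in a library gives a whole value, so these shares do not compare the division of reads alone. The share of a member's 31-base words that also occur in transcripts of other genes had a median of 13.2%. It was over 20% for 18 members and under 1% for 9, among them Olfr820 at 0.0213% and Olfr771 at 0.0484%. Every 31-base word of Olfr247 (100%) also occurs in Gm10310, a gene that lies beside it on the chromosome, and 38.1% of the words of Olfr819 occur there too.

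The sequences of 3 pairs of members are shown as examples of how much coding sequences of members differ. Each is the stretch of 90 coding bases with the most differences between the 2 genes, taken from GENCODE M21 transcripts on GRCm38 in the direction of transcription, 5′ to 3′, with capitals at the bases that differ. Olfr819 (chr10:129966008-129966097, minus strand) and Olfr247 (chr10:129974877-129974966, minus strand) differ at 7 of 960 aligned coding bases, 4 of them in this stretch of coding bases 602 to 691.
Olfr819: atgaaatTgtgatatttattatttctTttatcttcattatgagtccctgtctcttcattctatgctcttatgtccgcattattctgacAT
Olfr247: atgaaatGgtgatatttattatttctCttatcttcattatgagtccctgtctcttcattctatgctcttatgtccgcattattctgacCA

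Olfr763 (chr10:129012076-129012165, plus strand) and Olfr9 (chr10:128990703-128990792, plus strand), the first pair of the cluster, differ at 24 of 927 aligned coding bases. Of these differences 13 fall in the stretch of coding bases 790 to 879.
Olfr763: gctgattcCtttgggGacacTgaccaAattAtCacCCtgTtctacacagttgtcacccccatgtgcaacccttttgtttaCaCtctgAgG
Olfr9: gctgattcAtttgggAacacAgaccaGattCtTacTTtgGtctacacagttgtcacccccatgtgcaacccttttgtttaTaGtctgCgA

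Olfr820 (chr10:130017816-130017905, plus strand), the member that rose under odour, is set beside Olfr821 (chr10:130034081-130034170, plus strand), its next neighbour and closest relative in the cluster. They differ at 301 of 930 aligned coding bases, 41 of them in the stretch of coding bases 454 to 543.
Olfr820: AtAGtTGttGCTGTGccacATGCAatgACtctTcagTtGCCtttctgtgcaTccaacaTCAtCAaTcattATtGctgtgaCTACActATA
Olfr821: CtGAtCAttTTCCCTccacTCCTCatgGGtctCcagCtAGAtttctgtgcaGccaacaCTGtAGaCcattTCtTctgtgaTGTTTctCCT

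Each of the 55 members had a count in at least 1 library, and 41 had one in every library. Together they took 116325 counts, 1659 to 3438 in a pulldown library and 2199 to 3505 in an input. Levels between genes were compared as CPM per kb of exon in the inputs without odour. The median member stood at 0.293 and the median receptor at 0.236 on this scale, and 32 of the 55 members lay over the receptor median.

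Olfr801 had 2.28, 2.52, 2.64, 2.24 and 2.32 CPM per kb in the 5 inputs without odour, a mean of 2.40 ± 0.172 (SD, n = 5). Olfr820 had 1.75, 1.83, 2.07, 2.65 and 2.03 in the same libraries, a mean of 2.07 ± 0.352. The ranges of these genes, first and second in the order, overlap. Olfr771 followed at 1.77 ± 0.428 and Olfr805 at 1.75 ± 0.356, values that differ by less than their spread. Each of the 4 lay above 91.5% to 94.5% of all receptors, and together they held 31.1% of the counts of members.

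At the other end of the order Olfr773 had no count in the 5 inputs without odour, though it had 74 counts over the 42 libraries. Olfr779 was counted in 1 of these inputs, at 0.0401 CPM per kb, and Olfr768 had a mean of 0.0266 ± 0.0337 (SD, n = 5). Olfr773 shares 85.5% of its 31-base words with Olfr772, and Olfr779 shares 88.8% with other genes, mostly Olfr782. How far the division of reads among near copies lowered these 2 counts was not tested. In bulk RNA, fewer neurons that express a receptor and less RNA per neuron cannot be told apart.

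**Figure D1:**
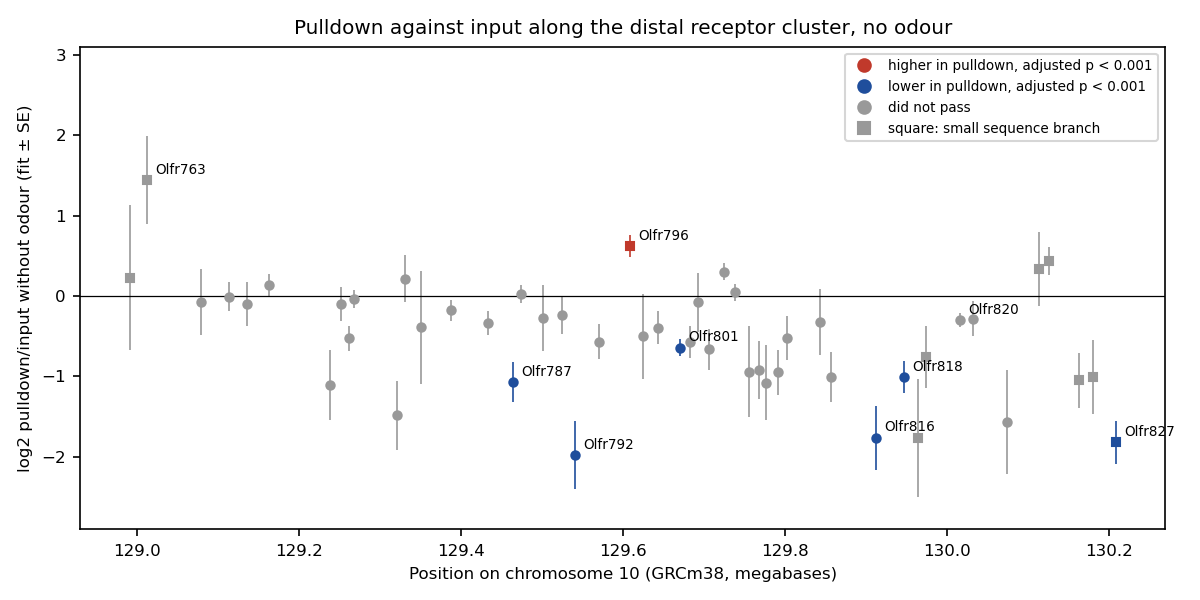
Log2 pulldown over input without odour (vertical axis, fit ± SE) against position on chromosome 10 in megabases (horizontal axis) for the 49 members tested. Olfr796 is the 1 member past the threshold above 0, at 0.62, and 6 lie past it below 0, down to -1.98 for Olfr792.

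Pulldown against input without odour asks which receptors are over- or under-represented on phosphorylated ribosomes when no odour was added. Of the members tested, 39 of 49 lay below their input, as did 542 of 908 receptors and 10443 of 21168 genes. Olfr796 was higher in the pulldown, and Olfr787, Olfr792, Olfr801, Olfr816, Olfr818 and Olfr827 were lower. The lower ones ran from 0.641 of the input for Olfr801 to 0.254 for Olfr792. Of these 7 members, Olfr796 and Olfr827 belong to the small branch and the other 5 to the large branch.

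The test was quasi-likelihood in edgeR, with each pool as a term. Benjamini-Hochberg adjustment ran over the 21168 genes tested, and adjusted p had to be under 0.001. Of the 55 members 49 had enough counts to be tested. Olfr765, Olfr768, Olfr773, Olfr779, Olfr814 and Olfr815 did not. There was 1 member higher in the pulldown, where 19.8% of all genes tested were higher, and 6 were lower, where 16% of all genes tested were lower. Fitted values were above 0 for 10 members and below 0 for 39, with a median log2 of -0.39. Over the 908 receptors tested the median was -0.19, with 109 higher and 94 lower, and over all genes tested it was 0.01.

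Olfr796 (ENSMUSG00000052012, chr10:129605492-129612570, minus strand) had 6.71, 7.44, 6.30, 8.85 and 5.17 CPM in the pulldowns of the 5 pools without odour. The inputs of the same pools had 5.23, 3.75, 4.14, 4.77 and 4.25. Each pulldown was above its own input, while the lowest pulldown and the highest input overlap. The log2 difference was 0.62 ± 0.137 (SE), in 5 of 5 pools, with adjusted p = 0.000352 (edgeR quasi-likelihood, Benjamini-Hochberg). The call is lost without NoOdour replicate 2 (adjusted p = 0.00428), 3 (0.00163) or 4 (0.00389). It is also lost with only the groups compared in the fit (0.00319) or with ribosomal RNA share in the fit (0.00377), over a range of 8.79e-05 to 0.00428 for the alternatives. The log2 difference was 0.59 and 0.52 in these last 2 fits, and from 0.52 to 0.71 with each pool left out in turn.

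Olfr801 (ENSMUSG00000058513, chr10:129666989-129673865, minus strand), the most abundant member per kb, had 8.17, 6.42, 5.59, 5.10 and 6.64 CPM in the pulldowns without odour. Its inputs had 9.41, 10.4, 10.9, 9.24 and 9.54. The highest pulldown was below the lowest input, so the groups do not overlap. The log2 difference was -0.64 ± 0.109 (SE), in 5 of 5 pools, with adjusted p = 1.5e-05 (edgeR quasi-likelihood, Benjamini-Hochberg). Olfr827 (ENSMUSG00000045559, chr10:130203049-130214403, minus strand), the last gene of the cluster, had 0.258, 0.310, 0.394, 0.375 and 0.343 CPM in the pulldowns. Its inputs had 0.866, 1.28, 0.992, 1.60 and 1.31, so that these groups do not overlap either. The log2 difference was -1.82 ± 0.267 (SE), in 5 of 5 pools, with adjusted p = 2e-06 in the same test. Both calls held under every alternative run.

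Olfr818 (chr10:129944396-129949100, minus strand) had 0.946, 0.753, 1.02, 1.24 and 1.47 CPM in the pulldowns without odour and 1.70, 1.46, 1.57, 3.62 and 2.91 in the inputs. The highest pulldown and the lowest input overlap, and each pulldown was below its own input. The log2 difference was -1.01 ± 0.203 (SE), in 5 of 5 pools, with adjusted p = 0.000131 (edgeR quasi-likelihood, Benjamini-Hochberg). The call is lost without NoOdour replicate 4 (adjusted p = 0.00198) or with only the groups compared in the fit (0.00136), over a range of 2.02e-05 to 0.00198 for the alternatives.

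Olfr792 (chr10:129539162-129542534, plus strand) had 0.129, 0.354, 0.0788, 0.225 and 0.249 CPM in the pulldowns without odour and 0.717, 0.450, 0.821, 1.23 and 0.883 in the inputs, with no overlap. Olfr816 (chr10:129909163-129915597, minus strand) had 0.344, 0, 0.158, 0.150 and 0.312 in the pulldowns and 0.538, 0.413, 0.890, 0.447 and 0.883 in the inputs, again with no overlap. Olfr787 (chr10:129461862-129467485, plus strand) had 0.989, 0.664, 0.473, 0.6 and 0.717 in the pulldowns and 1.16, 1.24, 1.09, 1.86 and 1.90 in the inputs. For each of these low-count receptors the highest pulldown was below the lowest input. The log2 differences were -1.98 ± 0.420 (SE) for Olfr792, -1.76 ± 0.399 for Olfr816 and -1.07 ± 0.249 for Olfr787, each in 5 of 5 pools. With edgeR quasi-likelihood and Benjamini-Hochberg, adjusted p was 0.000241, 0.000486 and 0.000627 in that order.

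These 3 calls lie close to the threshold, and leaving out any of several pools ends them while the log2 differences keep their direction and much of their size. With each pool left out in turn, log2 ran from -2.42 to -1.76 for Olfr792, from -2.11 to -1.52 for Olfr816 and from -1.29 to -0.94 for Olfr787. Without NoOdour replicate 1 the call of Olfr792 is lost (adjusted p = 0.00151), and without NoOdour replicate 2 those of Olfr787 (0.00144) and Olfr816 (0.00147). All 3 are lost without NoOdour replicate 3, 4 or 6, with adjusted p of 0.00105 to 0.00207 for Olfr792, 0.00129 to 0.00418 for Olfr816 and 0.00244 to 0.00555 for Olfr787. The count of 6 lower members is then 3, 2 and 3. It is 2 with only the groups compared in the fit and 3 with ribosomal RNA share in the fit. With a replicate block across odours the call of Olfr816 is lost (adjusted p = 0.00161). Over the alternatives adjusted p ran from 1.32e-05 to 0.00207 for Olfr792, 0.00015 to 0.00787 for Olfr816 and 0.000125 to 0.00555 for Olfr787.

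Among members that did not pass, Olfr763 had the highest fitted log2, 1.45 ± 0.548 (SE), in 5 of 5 pools (adjusted p = 0.0254, edgeR quasi-likelihood, Benjamini-Hochberg). Its pulldowns without odour had 0.559, 0.177, 0.433, 0.225 and 0.343 CPM and its inputs 0.329, 0.0750, 0.171, 0.0373 and 0.0654. Each pulldown was above its own input, and the groups overlap. Of its 31-base words 43.4% also occur elsewhere, mostly in Olfr9. Olfr824 had 0.44 ± 0.175 in 5 of 5 pools (adjusted p = 0.0326), and Olfr805 had 0.30 ± 0.105 in 4 of 5 (adjusted p = 0.0154). Olfr824 was at 0.28 without NoOdour replicate 3 and Olfr805 at 0.19 without NoOdour replicate 2.

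Olfr823 (0.34), Olfr781 (0.22), Olfr771 (0.14) and Olfr806 (0.05) had positive fitted values with standard errors of 0.460, 0.295, 0.143 and 0.104. None of these values is stable. Olfr823 was at 0.07 without NoOdour replicate 1, 0.52 without 2, 0.64 without 3 and 0.05 without 6. Olfr781 was at -0.07 without NoOdour replicate 1, 0.08 without 2, 0.32 without 4 and 0.41 without 6. Olfr771 was at 0.09 without NoOdour replicate 6 and 0.00 with ribosomal RNA share in the fit. Olfr806 was at 0.03 without NoOdour replicate 1, -0.03 without 3 and 0.12 without 6, and between 0.01 and 0.02 with DESeq2, DESeq2 size factors, other filters or only the groups compared. On the negative side Olfr810 had -0.95 ± 0.276 (adjusted p = 0.00458 by edgeR quasi-likelihood and Benjamini-Hochberg) and Olfr820 had -0.30 ± 0.0862 (adjusted p = 0.00404), both in 5 of 5 pools and neither past the threshold.

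Along the chromosome, the first 27 members by position held Olfr796 and 2 of the lower members, with a median log2 of -0.18 over the 23 tested. The last 28 held 4 of the lower members, with a median of -0.71 over the 26 tested. Across the 49 members tested, position and log2 pulldown over input had Pearson's r of -0.43 and Spearman's rho of -0.40. The points share the same libraries and, in part, reads of similar sequence, so this is a description. For the 43 pairs of next-door members tested, r was 0.16 (rho 0.13). Against the level per kb, r was 0.22 (rho 0.33), and against the share of shared 31-base words it was 0.09 (rho -0.02), each over 49 members.

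Other lists moved between pulldown and input in the same libraries. Of the 12 mature neuron markers 6 were higher and 1 lower, with a summed level of 17606 to 21335 CPM in the pulldowns without odour and 16499 to 20662 in the inputs. Supporting cell markers, 6 of 7 lower, summed to 2669 to 3979 in the pulldowns and 7935 to 10450 in the inputs, with Cyp2g1 the most abundant in the inputs. Erythrocyte markers, 5 of 5 higher, summed to 1562 to 2263 in the pulldowns and 362 to 719 in the inputs, led by Hba-a2 in the pulldowns. Also higher were 10 of 11 markers of receptor gene choice and 4 of 6 of immature neurons. Macrophage markers (4 of 4) and neutrophil markers (3 of 4) were higher, and horizontal basal cell markers (3 of 4) lower. None of these markers was at 0. Their part in the values of the cluster was not tested.

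Without odour, members took 2.73% ± 0.101 (SD, n = 5) of all receptor counts in pulldowns and 3.70% ± 0.106 in inputs. Under odour the pulldown share was 2.48% ± 0.0815 (n = 6) for NCD, 2.45% ± 0.232 (n = 5) for BFD and 2.46% ± 0.0518 (n = 5) for HFD. The inputs had 3.63% ± 0.0439, 3.65% ± 0.0628 and 3.61% ± 0.138 in that order. In every group the pulldown share was below the input share by more than the spread between pools. These shares were described and not tested.

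Some features of the libraries differ with odour. Ribosomal RNA genes took 24.5% ± 6.03 (SD, n = 5) of the counts of pulldowns without odour and 14.7% ± 3.14 (n = 16) with any odour, and 28.6% ± 4.28 against 14.7% ± 3.58 in the inputs. Odour and ribosomal RNA share cannot be told apart by comparing groups alone. Mitochondrial genes took 1.31% ± 0.127 (SD, n = 5) of input counts without odour and 0.972% ± 0.117 (n = 16) with any odour. In the pulldowns they took 0.110% ± 0.073 and 0.121% ± 0.117. The part of this difference in the values of the cluster was not tested. The pulldown of BFD replicate 1 stood apart from the other BFD pulldowns, with 5461 CPM of supporting cell markers (2434 to 4064 in the others), 39.0 of horizontal basal cell markers (7.69 to 15.9) and 1330 of erythrocyte markers (2276 to 2866). Members took 2.86% of its receptor counts, against 2.32% to 2.38% in the other BFD pulldowns.

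**Figure D2:**
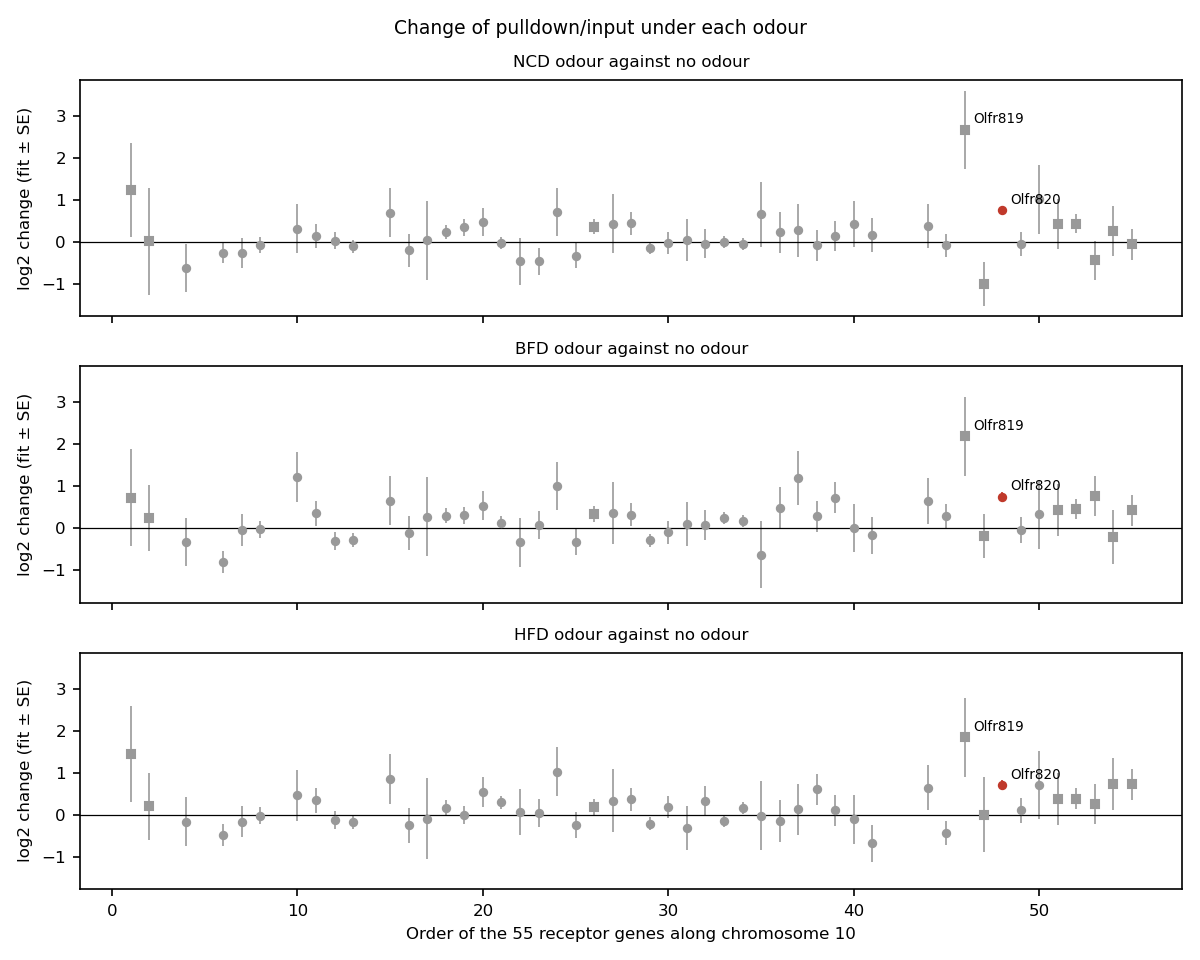
Log2 change of pulldown over input under each odour against no odour (vertical axes, fit ± SE) for the 49 members tested, in order along chromosome 10 (horizontal axis). Olfr820, in red, is the 1 member past the threshold in each panel, at 0.75, 0.76 and 0.70.

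Each odour was compared with no odour to ask which receptors changed their pulldown over input. Under each of the 3 odours Olfr820 rose, and it was the 1 member to pass the test each time. Its ratio of pulldown to input rose 1.69-fold with NCD odour, 1.69-fold with BFD odour and 1.62-fold with HFD odour. The 3 comparisons share the 5 pools without odour, so they are not independent of each other.

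With NCD odour 1 of the 49 members tested was higher, where 0.359% of all genes tested were higher. The edgeR test found 0 members lower, where 0.165% of all genes tested were lower, as did DESeq2 with the same design (0). At an unadjusted p under 0.05 edgeR had 0 members lower, where 14% of all genes tested were lower. The median log2 of the members was 0.06, against 0.23 over the 908 receptors tested, of which 17 were higher, and 0.00 over all genes.

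With BFD odour 1 member was higher, where 2.47% of all genes tested were higher. The edgeR test found 0 lower, where 1.32% of all genes tested were lower, and DESeq2 found 0. At an unadjusted p under 0.05 edgeR had 1 member lower, Olfr769, where 16.4% of all genes tested were lower. The median was 0.28, against 0.29 over the receptors tested, of which 34 were higher, and 0.00 over all genes.

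With HFD odour 1 member was higher, where 0.699% of all genes tested were higher. The edgeR test found 0 lower, where 0.52% of all genes tested were lower, and DESeq2 found 0. At an unadjusted p under 0.05 edgeR had 0 members lower, where 15.2% of all genes tested were lower. The median was 0.15, against 0.27 over the receptors tested, of which 12 were higher, and -0.01 over all genes.

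Olfr820 (ENSMUSG00000048745, chr10:130012621-130021286, plus strand) is the 48th gene of the cluster. Its pulldowns had 6.88, 7.53, 6.97, 8.70 and 9.16 CPM in the 5 pools without odour, and its inputs 8.24, 8.59, 9.72, 12.4 and 9.54. Each pulldown without odour was below its own input.

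With NCD odour the 6 pulldowns of Olfr820 ran from 10.3 to 11.4 CPM (median 10.8) and the 6 inputs from 7.32 to 8.51 (median 8.06). With BFD odour the pulldowns had 10.2, 11.2, 11, 9.97 and 9.26 and the inputs 7.06, 8.03, 7.86, 6.78 and 7.92. With HFD odour the pulldowns had 10.6, 9.65, 10.9, 9.93 and 8.90 and the inputs 6.75, 7.40, 7.48, 8.23 and 8.06. In each of the 16 pools with an odour the pulldown was above its own input. The pulldown level alone does not overlap between no odour and NCD or BFD odour, while the lowest HFD pulldown lies within the range without odour.

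As log2 of pulldown over input, Olfr820 ran from -0.51 to -0.06 in the pools without odour. It ran from 0.34 to 0.62 in NCD pools, from 0.22 to 0.55 in BFD pools and from 0.14 to 0.65 in HFD pools. No pool with an odour overlaps the pools without. The fitted change was 0.75 ± 0.115 (SE) with NCD odour, in 6 of 6 pools, with adjusted p = 0.000214 (edgeR quasi-likelihood, Benjamini-Hochberg). It was 0.76 ± 0.121 with BFD odour, in 5 of 5 pools (adjusted p = 0.000153 in the same test), and 0.70 ± 0.121 with HFD odour, in 5 of 5 pools (adjusted p = 0.000559). Without BFD replicate 1 the change with BFD odour was 0.74 (adjusted p = 0.00015).

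The size of the change in Olfr820 moved little between alternatives, while its place beside the threshold did not hold under all of them. The NCD call is lost without NoOdour replicate 3 (adjusted p = 0.00183, alternatives from 1.87e-07 to 0.00183). A replicate block across odours in the fit also ends it (0.00163). The BFD call is lost with only the groups compared in the fit (0.00386) or with ribosomal RNA share in the fit (0.00268, alternatives from 1.14e-07 to 0.00386). The HFD call is lost with only the groups compared (0.00713, alternatives from 2.82e-06 to 0.00713), and without NoOdour replicate 1 (0.00138), 2 (0.00108), 3 (0.00227) or 4 (0.0017). It is also lost without HFD replicate 1 (0.0023), 2 (0.0019), 3 (0.00275) or 5 (0.00128), and with the replicate block (0.0034). In every such fit the log2 change stayed at 0.64 or higher.

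**Figure D3:**
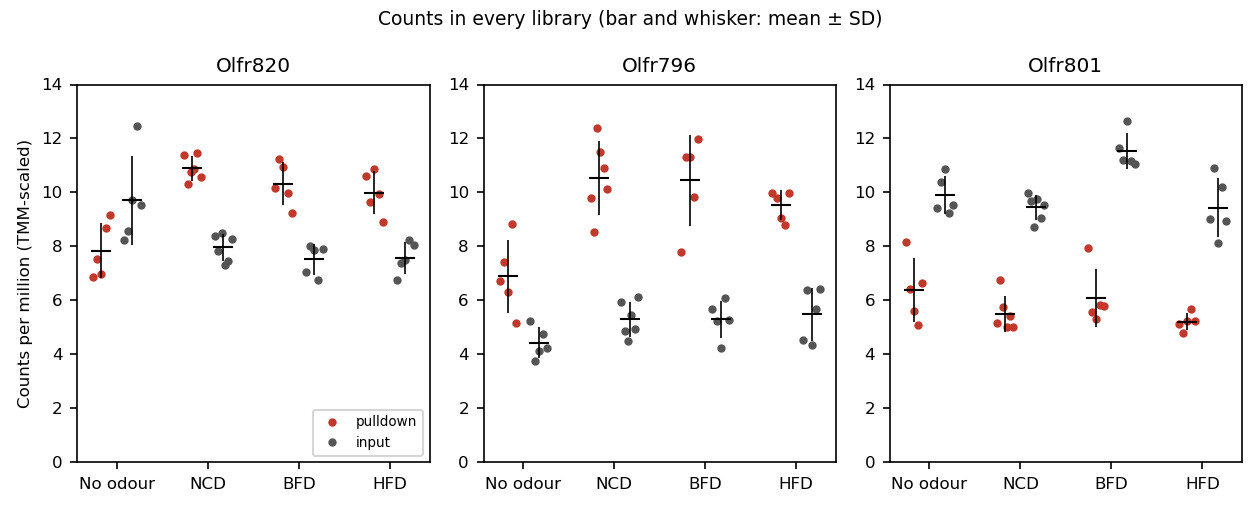
Level in CPM (vertical axis) of Olfr820, Olfr796 and Olfr801 in each pulldown and input library by odour (horizontal axis), with bars at the mean and whiskers of 1 SD. The pulldowns of Olfr820 average 7.85 without odour and 10.9, 10.3 and 9.99 with NCD, BFD and HFD odour.

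The inputs of Olfr820 were also compared on their own, and their change did not pass the test with NCD, BFD or HFD odour. Without odour its pulldowns averaged 7.85 ± 1.03 CPM (SD, n = 5), against 10.9 ± 0.457 (n = 6) with NCD odour, 10.3 ± 0.799 (n = 5) with BFD odour and 9.99 ± 0.785 (n = 5) with HFD odour. In the inputs the means were 9.71 ± 1.65, 7.96 ± 0.505, 7.53 ± 0.570 and 7.59 ± 0.590. Part of the rise of Olfr820 in the ratio therefore lies in the inputs, beside the higher pulldowns. The input values with odour lie below most of those without, and the highest with NCD odour, 8.51, overlaps the lowest without odour, 8.24. In the inputs alone the log2 change was -0.29 ± 0.0915 (SE) with NCD odour in 6 of 6 pools, -0.37 ± 0.0957 with BFD odour and -0.35 ± 0.0960 with HFD odour, each in 5 of 5. Adjusted p (edgeR quasi-likelihood, Benjamini-Hochberg over 20451 genes of the inputs) was 0.0257, 0.00358 and 0.0117, so none passed the threshold. Without NoOdour replicate 4 the input change with NCD odour was -0.19. With ribosomal RNA share in the fit the 3 changes were -0.21, -0.25 and -0.27 (adjusted p of 0.637, 0.678 and 0.525).

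Olfr796, higher in the pulldown without odour, had 8.52 to 12.4 CPM in the 6 pulldowns with NCD odour (median 10.5) and 4.48 to 6.11 in their inputs (median 5.19). With BFD odour its pulldowns had 7.79, 11.3, 11.3, 9.84 and 12 and its inputs 5.69, 5.26, 4.25, 6.08 and 5.27, and with HFD odour they had 9.99, 9.81, 9.04, 8.80 and 9.98 against 4.55, 6.4, 4.36, 5.68 and 6.42. In every pool with an odour its pulldown was above its own input. The change from no odour did not pass the test under any odour, with a log2 of 0.37 ± 0.181 (SE) for NCD in 6 of 6 pools (adjusted p = 0.189, edgeR quasi-likelihood, Benjamini-Hochberg), 0.34 ± 0.189 for BFD and 0.19 ± 0.189 for HFD.

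Olfr801, lower in the pulldown without odour, had 5.00 to 6.75 CPM in the 6 pulldowns with NCD odour (median 5.29) and 8.74 to 9.98 in their inputs (median 9.60). In the BFD pools the mean was 6.09 ± 1.07 (SD, n = 5) in pulldowns and 11.5 ± 0.656 in inputs, and in the HFD pools 5.22 ± 0.320 and 9.44 ± 1.10. The pulldowns of each group lay below all of its inputs. The log2 change with BFD odour, -0.29 ± 0.152 (SE) in 4 of 5 pools, did not pass the test (adjusted p = 0.190, edgeR quasi-likelihood, Benjamini-Hochberg) and was -0.17 without NoOdour replicate 1.

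Olfr819 had the largest fitted changes of the 49 members, and none passed the test. Its pulldowns had 0.172, 0.0443, 0.0788, 0.0375 and 0.0935 CPM without odour and 0.222 to 0.599 (median 0.358) with NCD odour. Its inputs had 0.388, 0.675, 0.171, 0.335 and 0.0981 without odour and 0 to 0.798 (median 0.190) with NCD odour. The pulldowns do not overlap between these groups, and the inputs do. The log2 change was 2.68 ± 0.928 (SE) with NCD odour in 6 of 6 pools, 2.20 ± 0.940 with BFD odour in 5 of 5 and 1.84 ± 0.949 with HFD odour in 4 of 5. With edgeR quasi-likelihood and Benjamini-Hochberg, adjusted p was 0.0556, 0.0955 and 0.196. DESeq2 on pulldown divided by input, in place of the edgeR fit, put the NCD change at 3.45 with adjusted p = 0.000618, past the threshold (alternatives from 0.000618 to 0.157).

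The near copy of Olfr819, Olfr247, had a log2 change of -0.99 ± 0.521 (SE) with NCD odour in 5 of 6 pools (adjusted p = 0.215, edgeR quasi-likelihood, Benjamini-Hochberg). Its pulldowns ran from 0.103 to 0.570 CPM with NCD odour and from 0.172 to 0.712 without. Its inputs ran from 0.760 to 1.68 with NCD odour and from 0.411 to 1.04 without. The pulldown ranges overlap over most of their length, and the inputs with NCD odour reach higher, so the inputs carry much of this value. The 2 genes differ at 7 coding bases, and how reads were divided between them was not tested.

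Olfr769 had the smallest p among members on the falling side with BFD odour. Its pulldowns had 2.32, 1.99, 3.15, 2.21 and 2.49 CPM without odour and 1.74, 1.71, 1.30, 0.918 and 1.81 with BFD odour. Its inputs had 2.54, 2.40, 2.26, 3.09 and 1.96 without odour and 2.59, 2.07, 3.28, 2.60 and 2.49 with BFD odour. The pulldowns do not overlap, and the inputs do. The log2 change was -0.81 ± 0.264 (SE) in 5 of 5 pools with BFD odour (adjusted p = 0.0280, edgeR quasi-likelihood, Benjamini-Hochberg) and -0.48 ± 0.264 in 4 of 5 with HFD odour (adjusted p = 0.231), neither past the threshold. With ribosomal RNA share in the fit the change with BFD odour was -0.49.

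The remaining members named for their small p had these fitted log2 changes, none past the threshold (edgeR quasi-likelihood, Benjamini-Hochberg). With NCD odour Olfr824 had 0.44 ± 0.233 (SE, adjusted p = 0.218) and Olfr791 had -0.46 ± 0.323 (adjusted p = 0.377), or -0.24 without NoOdour replicate 3. With BFD odour Olfr774 had 1.22 ± 0.6 (adjusted p = 0.154) and Olfr811 had 0.73 ± 0.367 (adjusted p = 0.163), each in 5 of 5 pools. With HFD odour Olfr827 had 0.72 ± 0.364 in 5 of 5 pools (adjusted p = 0.184), Olfr788 had 0.30 ± 0.152 in 4 of 5 (adjusted p = 0.192) and Olfr813 had -0.68 ± 0.440 in 5 of 5 (adjusted p = 0.318), or -0.45 without NoOdour replicate 1. Over the 49 members tested, fitted changes ran from -0.99 to 2.68 with NCD odour, from -0.81 to 2.20 with BFD odour and from -0.68 to 1.84 with HFD odour.

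Direct comparisons of odours ask whether receptors told the diets apart, and they do not use the pools without odour as a reference. Olfr820 differed little between odours: its log2 difference was -0.06 (95% interval -0.30 to 0.19) for HFD against BFD, -0.06 (-0.29 to 0.18) for HFD against NCD and 0.00 (-0.23 to 0.23) for BFD against NCD. These intervals bound the differences that the pools allow and do not show that the odours act alike on it.

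The edgeR test found 0 members that differed between HFD and BFD odour, where 0.0378% of all genes tested did, 0 between HFD and NCD odour (0.0236% of all genes tested) and 0 between BFD and NCD odour (0.00945%). DESeq2 with the same design also gave 0, 0 and 0. At an unadjusted p under 0.05 edgeR had 2 members for HFD against BFD, where 8% of all genes tested were under it, 3 for HFD against NCD (4.62%) and 2 for BFD against NCD (7.24%).

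The members with the smallest p in these comparisons were named. For HFD against BFD odour these were Olfr805 at -0.39 ± 0.144 (SE) and Olfr818 at -0.72 ± 0.276, each lower in 5 of 5 HFD pools than the BFD mean, with adjusted p of 0.488 and 0.508 (edgeR quasi-likelihood, Benjamini-Hochberg). For HFD against NCD they were Olfr788 at 0.31 ± 0.144 in 4 of 5 pools and Olfr827 at 0.78 ± 0.341 in 5 of 5, both with adjusted p rounding to 1.00. For BFD against NCD they were Olfr825 at 1.21 ± 0.451 and Olfr769 at -0.56 ± 0.252, each in 5 of 5 pools, with adjusted p of 0.635 and 0.678. With ribosomal RNA share in the fit Olfr769 was at -0.30.

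Inputs compare the receptor RNA of the tissue itself, without the pulldown. Of the 55 members 47 were tested there, since Olfr763 and Olfr782 joined the 6 members left out before. The edgeR test found 0 members changed with NCD odour, where 0.998% of all genes tested changed, 0 with BFD odour, where 13.7% did, and 0 with HFD odour, where 0.963% did. DESeq2 also found 0, 0 and 0. At an unadjusted p under 0.05 edgeR had 5 members for NCD (35.7% of all genes tested), 5 for BFD (47.3%) and 7 for HFD (34.9%).

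Besides Olfr820, the inputs named Olfr810, Olfr802 and Olfr787. Olfr802 had 2.24, 1.39, 1.85, 1.64 and 1.50 CPM in inputs without odour and 2.15, 2.18, 2.84, 2.90 and 2.49 with BFD odour. Most BFD inputs are above all those without odour, and the groups overlap through 2.24, the highest value without. The log2 change was 0.54 ± 0.163 (SE) in 5 of 5 pools (adjusted p = 0.0106, edgeR quasi-likelihood, Benjamini-Hochberg). Olfr810 had 0.37 ± 0.148 with NCD odour in 6 of 6 pools (adjusted p = 0.0684), and Olfr787 had -0.61 ± 0.213 with HFD odour in 5 of 5 (adjusted p = 0.0404).

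Markers of other cell types moved in the ratio under odour beside Olfr820. Of 5 Bowman gland markers 2 rose under each odour, Bpifb9b and Obp1a, which encode secreted proteins of nasal glands. In CPM the list summed to 6277 to 8420 in pulldowns of the pools without odour. Pulldowns of NCD pools had 12640 to 14245, of BFD pools 14672 to 22443 and of HFD pools 16666 to 19220. Bpifb9b was the most abundant there under each odour, and none was at 0. Inputs of the list summed to 6975 to 13897 without odour and 8125 to 8701 in NCD pools. They had 12354 to 14831 in BFD pools and 10347 to 11349 in HFD pools. Of 12 mature neuron markers 2 rose with BFD odour, Gng13 (a G protein subunit, log2 1.33 ± 0.236, SE) and Omp (0.64 ± 0.105), and none was at 0. In the BFD inputs alone both fell (-1.17 and -0.45), as did Obp1a (-1.28), so part of these rises in the ratio lies in the inputs. The mature neuron list summed to 17606 to 21335 in pulldowns without odour, 22889 to 25776 in NCD pools, 19498 to 26590 in BFD pools and 20930 to 23918 in HFD pools. The NCD sums lie wholly above those without odour, and the HFD sums overlap them. Among BFD pulldowns only replicate 1 (19498) overlaps them, and the other 4 had 23826 to 26590. In the inputs it summed to 16499 to 20662 without odour and 16520 to 18239 in BFD pools. The most abundant marker in pulldowns was Omp without odour and Stoml3 under each odour.

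Microvillous and immature neuron lists each held 1 marker that passed the test in the same comparisons, and none of their markers was at 0. Ascl3, 1 of 4 microvillous markers, rose under each odour (log2 0.73, 0.79 and 0.90 with NCD, BFD and HFD), and in the inputs it fell with BFD odour (-0.50). Dpysl3, 1 of 6 immature neuron markers, fell under each odour (-0.53, -0.61 and -0.50). In pulldowns without odour and with NCD, BFD and HFD odour, microvillous markers averaged a sum of 73.7, 99.3, 87.9 and 113 CPM, and immature neuron markers 1693, 1516, 1426 and 1437. The most abundant without odour were Foxi1 and Dpysl3. The sum of 4 macrophage markers, none at 0, was 64.1 to 86.0 in pulldowns without odour, and lower without overlap in NCD (38.6 to 53.3), BFD (31 to 50.9) and HFD pools (42.7 to 48.3). Inputs had 29.3 to 35.2 without odour and 25.1 to 28.2, 22.3 to 27 and 25 to 30.4 in that order. The part of these changes and of the ribosomal RNA share in the result for Olfr820 was not tested beyond the covariate fits.

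Genes without an Olfr symbol in the same stretch of chromosome 10 give the setting. There are 87, of which 48 were tested, and without odour 13 were higher (19.8% of all genes tested) and 8 lower (16%) in the pulldown, with a median log2 of 0.13 against -0.39 in the cluster. With BFD odour 3 of them rose (2.47% of all genes tested), Naca (0.50 ± 0.101, SE), Sarnp (0.68 ± 0.119) and Bloc1s1 (0.69 ± 0.131), and Baz2a fell by 0.58 on the log2 scale (1.32% lower among all genes tested). In the BFD inputs alone 10 of 47 fell, among them Naca (-0.54), Sarnp (-0.70) and Bloc1s1 (-0.57), and 1 rose, where 13.7% of all genes tested changed. Much of the rise of these 3 genes in the ratio therefore lies in the inputs.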

How the data were processed

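The authors deposited estimated counts per gene (Salmon, GRCm38), which are not normalized. Gene names and positions were added here from GENCODE M21, which named 44118 of the 44674 genes. They describe dividing pulldown by input before DESeq2 1.26, and those values are not used here. After rounding, edgeR's filterByExpr at a minimum count of 10 kept 21168 genes (20451 in the fit of inputs alone). Robust quasi-likelihood fits in edgeR 4.0.16 with TMM used a term per pool and the interaction of pulldown with odour (R 4.3.3 and limma 3.58.1). Common biological variation was 12.0%. The code was tried on simulated counts. Ratios of single pools used a prior count of 2. Intervals of 95% came from the t distribution.

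As alternatives, edgeR was run on DESeq2 size factors, and DESeq2 1.42.0 was run both on this design and on pulldown over input. Others were no pool term, a replicate block, only the groups compared, no filter or a minimum count of 30, adjusted p under 0.05, ribosomal RNA share in the fit, prior counts of 0.5 and 5, and leaving out each pool.

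The rule for naming members and the lists were chosen with earlier results of these data known. Members were named where adjusted p was under 0.001, where they had the smallest p in a comparison (8 per direction without odour, 4 rising and 2 falling per odour, 2 per direct or input comparison), and for the 4 highest and 3 lowest levels. Olfr821 and Olfr9 were added after values were seen, for their sequences. Coding sequences and 31-base words came from the GENCODE M21 transcripts.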

Additional observations from a re-analysis of the deposited data

Results flagged for a closer look

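Log2 pulldown over input of single pools was searched for a pool far from the others of its group. Of 116 groups 6 held one, and chance alone gives about 1 in 20.

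For Olfr820 with BFD odour, pool 5 had 0.22 where the other 4 pools had 0.48 to 0.55. For Olfr802 with NCD odour, pool 1 had 0.0812 where the others had -0.86 to -0.59. For Olfr823 with BFD odour, pool 3 had 2.39 where the others had 0.20 to 0.38.

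Olfr768 and Olfr779 are members with too few counts to be tested. Olfr768 had 1.79 in pool 2 with NCD odour, where the others had -0.10 to 0.55. Olfr779 had 0.45 in pool 4 without odour and -0.65 in pool 1 with HFD odour, where the other pools of each group had 0.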

How the results depend on the processing

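Counts of members past the threshold changed most without odour. The 1 higher member became 0 with only the groups compared in the fit, 0 with ribosomal RNA share in the fit and 4 at adjusted p under 0.05. The 6 lower members became 2, 3 and 19 in the same order. Leaving out each pool gave 0 to 1 higher and 2 to 6 lower. Under odour, the 1 higher member became 2 with NCD odour by DESeq2 on pulldown divided by input, and 0 with BFD odour with only the groups compared and 0 with ribosomal RNA share in the fit. With HFD odour it became 0 with only the groups compared. Leaving out each pool gave 0 to 1 higher with NCD odour, 1 to 1 with BFD odour and 0 to 1 with HFD odour. At adjusted p under 0.05, 1 member was lower with BFD odour, and 1, 4 and 2 members changed in the inputs with NCD, BFD and HFD odour. The cause was not tested.

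Between odours the count of members was 0 under every alternative run. DESeq2 size factors moved log2 values by at most 0.03 and turned no direction. Directions turned in 2 of the fits that left out a pool: Olfr781 was at -0.0700 without NoOdour replicate 1 (up to 0.415 with other pools left out), and Olfr806 at -0.0289 without NoOdour replicate 3 (up to 0.118), both far from the threshold. With a prior count of 0.5 the mean log2 ratio moved for Olfr773 with NCD odour (2.37), Olfr779 with BFD odour (-0.87) and Olfr822 without odour (-2.04), all low in counts.

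Replicate numbers are shared between odours. With a replicate block across odours the count of higher members was 0 with NCD odour and 0 with HFD odour, since adjusted p for Olfr820 rose to 0.00163 and 0.0034 at log2 changes of 0.77 and 0.71, and Olfr816 without odour went to 0.00161. The count for BFD odour was 1. Of the pools of different odours, 27 pairs with the same number had a median correlation of 0.02 in their deviations from group means (lowest -0.21), and other pairs had 0.00. The pulldown and input of the same pool had a median of 0.01, so this measure misses a known pairing. It cannot show whether the numbers pair samples, and the pool term rests on the methods.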
